A study of Homo sapiens with 35 samples.

Results

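The comparison described here is the response of U937 cells carrying a control guide to TPA. Its members are 6 of the 35 libraries of the series, chosen by their labels alone: 3 libraries of TPA-treated sgControl U937 cells and 3 libraries of untreated sgControl U937 cells. The study used polyA RNA sequencing of acute myeloid leukaemia lines in which SUV39H1 (SKO) or both SUV39H1 and SUV39H2 (DKO), enzymes that methylate lysine 9 of histone H3, had been knocked out by CRISPR guides, with sgControl cells as the comparison. All 6 libraries came from the human line U937, grown in RPMI-1640 with 10% fetal bovine serum, and all carry the label sgControl, so they differed by label in the treatment only. The dose and the duration of TPA are not given in the sources used here, and neither is whether a solvent was added to the untreated cells. The labels number the replicates without saying whether each was its own culture. Every p-value below therefore rests on the variation among libraries, which may be technical in origin.

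TPA is the usual abbreviation of the phorbol ester tetradecanoylphorbol acetate, which the labels do not spell out. Phorbol esters take the place of diacylglycerol on the C1 domains of protein kinase C (PKC) and of the RASGRP exchange factors, and through RAS, RAF and ERK they induce the AP-1 factors FOS and JUN. The DNA element that AP-1 binds was named the TPA response element. U937 is a monocytic line from a histiocytic lymphoma, long used as a model in which phorbol esters stop growth, make the cells adhere and turn on macrophage genes.

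The 3 TPA-treated libraries held 35975177 to 40736119 counted reads and the 3 untreated libraries 35419849 to 42785519. Log2 levels correlated at 0.9969 or more within each group and at 0.9513 to 0.9529 between groups. Mitochondrially encoded genes took at most 6.14% of the reads with TPA and at most 6.71% untreated. The markers CD33 and SPI1 were present in both conditions. CD33, a myeloid receptor, stood at 63.1 CPM with TPA and 62.3 CPM untreated, and SPI1, the PU.1 factor, at 116 CPM with TPA and 83.4 CPM untreated. Of 10 markers listed for the line, 6 (60%) were called higher with TPA and 2 (20%) lower, beside 34.6% and 33.2% over all genes tested. CSF3R was among those that fell, and MPO was near absent in both groups. CPM here is edgeR's counts per library size after TMM scaling. SUV39H1, not targeted in sgControl cells, had 35.0, 37.2 and 36.6 CPM with TPA, against 66.6, 67.3 and 61.0 CPM untreated, and SUV39H2 had 19.1, 20.0 and 20.6 against 39.8, 42.8 and 43.7 CPM untreated. The groups did not overlap for either gene, and both were called lower, with log2 changes of -0.84 ± 0.05 and -1.08 ± 0.06 (SE).

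The treated libraries and the untreated ones were deposited in separate count tables, so the treatment and the table cannot be told apart. Mean CPM was compared over all 13 groups of the series to find genes that differ between the tables in every group. Of 16989 genes, 6 were at least 2-fold higher in each of the 7 groups of the table with TPA than in each of the 6 groups of the other, and 3 were at least 2-fold lower. None reached 4-fold in either direction. The 6 were IER3, CSRP3, OSM, SCX, TRIB1 and NCF1, and the 3 were ANKRD55, ADAMTS17 and MVB12B. Lines, knockout labels and treatment also differ between the tables. Such a count can therefore miss a table effect and does not measure its size. Besides, 4 untreated groups of the lines MOLM-13 and OCI-AML-3 stand in the table with TPA. Of the 3004 genes called at least 2-fold higher with TPA, 1076 (35.8%) were also at least 2-fold above each of those 4 groups, and of the 1332 called at least 2-fold lower, 203 (15.2%) were at least 2-fold below each. Of the 513 called at least 16-fold higher, 311 (60.6%) were at least 2-fold above each. Those groups differ from U937 in line as well as treatment. The same shares were not taken over all genes tested, so these have no background to be read against.

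Most expressed genes differed with TPA, and the large differences were mainly increases. Of 16989 genes tested, 11509 (67.7%) were called, 5871 (34.6%) higher and 5638 (33.2%) lower at an adjusted p of 0.05. By at least 2-fold, 4336 genes (25.5%) changed, of which 3004 (17.7%) rose and 1332 (7.84%) fell. The 3 libraries with TPA lay wholly above the 3 untreated ones for 36.8% of genes and wholly below them for 35.1%. At 16-fold or more the counts were 513 higher and 66 lower, and at 256-fold or more 63 and 4. The median change over all genes was 0.05 on the log2 scale, with quartiles of -0.49 and 0.81. Because the RNA is from bulk cultures, fewer cells of a type and less RNA per cell cannot be told apart.

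**Figure D1:**
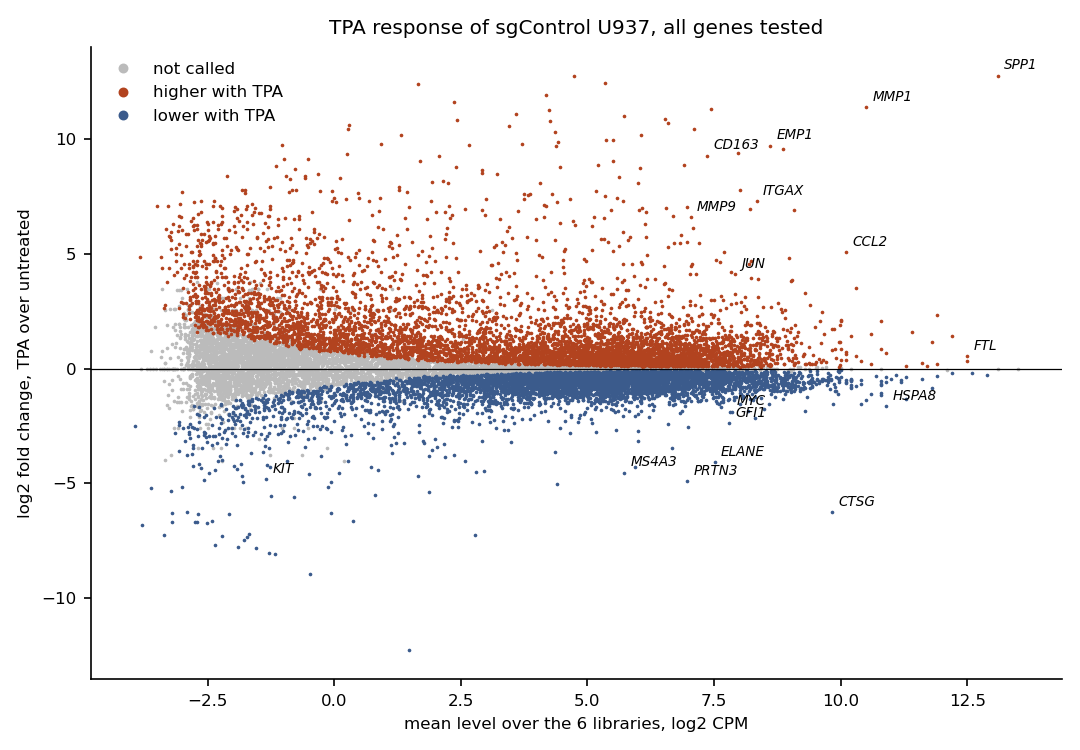
Each point is a gene of the 16989 tested: log2 fold change of TPA over untreated sgControl U937 against its mean level in log2 CPM, coloured by call (edgeR, adjusted p of 0.05). The mean level is over all 18 U937 libraries, those labelled SKO and DKO included, although the axis label names 6. Of the labelled genes SPP1, at a log2 change of 12.76, stands highest and CTSG, at -6.25, lowest. Points of genes with 0 reads in a group are fitted values and not bounds.

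The largest increase was that of SPP1, which encodes osteopontin, a secreted matrix phosphoprotein made by macrophages. SPP1 had 5193, 5053 and 5012 CPM with TPA, against 0.584, 0.784 and 0.839 CPM untreated. No gene that rose at least 2-fold had more CPM with TPA, and per length SPP1 averaged 702 RPKM with TPA, against 0.101 RPKM untreated. That placed it at rank 23 of the 16989 genes by RPKM with TPA, against rank 14113 untreated. SPP1 shares exon bases with an antisense gene, CTD-2285E13.1, and the counts did not use strand. The genes next in CPM with TPA, among those that rose at least 2-fold, were LCP1, FLNA, TMSB4X, IQGAP1 and CAP1, which bind or organise actin, the integrin chain ITGB2, the protease CTSB, the membrane-binding ANXA2 and the lysosomal cholesterol transporter NPC1. LCP1 averaged 4932 CPM with TPA, against 2244 CPM untreated, and TMSB4X 3324 against 1112 CPM untreated. Their log2 changes, 1.14 ± 0.03 and 1.58 ± 0.03, were small beside that of SPP1, and for both the treated libraries lay above all untreated ones.

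Some genes had no reads at all in untreated cells. With TPA, 23 genes with 0 reads in all 3 untreated libraries had at least 1 CPM in all 3 treated libraries, and 2 genes showed the reverse. EDN1, the vasoactive peptide endothelin, had 22.1, 23.2 and 21.3 CPM with TPA and no read in the untreated libraries, which is at least 904-fold higher against a floor of 3 reads over the group. RGS13, a regulator of G protein signalling, was at least 521-fold higher, CMKLR1, the chemerin receptor, at least 414-fold, and XIRP1, an actin-binding protein, at least 327-fold, each with 0 untreated reads. The long noncoding RNAs AC003092.1 and LINC00702 averaged 17.4 and 7.14 CPM with TPA and had 0 reads untreated. ARNT2, a bHLH-PAS factor, had 105, 113 and 109 CPM with TPA, against 0, 0 and 0.0559 CPM untreated. AQP9, a water and glycerol channel that shares exon bases with ALDH1A2 on the opposite strand, averaged 67.2 CPM with TPA, against 0.0326 CPM untreated.

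In the other direction IGLL1, a surrogate light chain gene of B cell precursors, had no read with TPA, against 18.1, 14.1 and 16.6 CPM untreated, at least 670-fold lower. IL2RA, a subunit of the interleukin-2 receptor, was the other gene of that kind, at 0 CPM with TPA, against 1.59, 1.31 and 1.93 CPM untreated. After IGLL1, the 12 largest decreases included CTSG, PLAC8, PRTN3, MS4A3, MLC1 and ELANE. PLAC8 averaged 3.63 CPM with TPA, against 118 CPM untreated, and MS4A3, a membrane gene of granulocyte and monocyte progenitors, 7.23 against 168 CPM untreated. MLC1 averaged 6.67 CPM with TPA, against 130 CPM untreated.

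Single genes of PKC isoforms and of other phorbol ester receptors changed in both directions, but as lists they were called about as often as other genes. Of 8 PKC isoforms tested, 3 (37.5%) were called higher and 2 (25%) lower, and of 11 other receptors 3 (27.3%) were called in each direction, beside 34.6% higher and 33.2% lower over all genes tested. PRKCB, which encodes PKC beta, had 479, 481 and 473 CPM with TPA, against 229, 229 and 232 CPM untreated. The groups lay clear of each other, at a log2 change of 1.06 ± 0.03. PRKCD, PKC delta, rose by less, averaging 232 CPM with TPA, against 197 CPM untreated. PRKCE and PRKCQ, PKC epsilon and theta, fell, to 11.3 CPM with TPA against 18.1 CPM untreated, and to 7.72 against 13.3 CPM untreated. The third gene called higher, PRKCA, was near 0 in both groups (0.142, 0.789 and 1.20 CPM with TPA, against 0.420, 0.0461 and 0.112 CPM untreated), and the groups overlapped. Its call was lost without TPA replicate 3 (edgeR, adjusted p = 0.14), and also without untreated replicate 2 (0.082) or 3 (0.058). Among the RAS exchange factors, RASGRP3 had 42.6, 38.9 and 39.7 CPM with TPA, against 0.444, 0.138 and 0.447 CPM untreated, while RASGRP2 had 24.9, 25.7 and 24.7 against 96.2, 87.3 and 90.9 CPM untreated. RASGRP3 rose by 6.89 ± 0.14 on the log2 scale and RASGRP2 fell by 1.87, so these 2 members moved in opposite directions. DGKG, a kinase that removes diacylglycerol, fell to 8.87 CPM with TPA, against 24.8 CPM untreated.

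Genes listed for feedback on the MAPK pathway, to which ERK belongs, were mostly higher. Of 17 MAPK feedback genes tested, 14 (82.4%) rose and 1 (5.88%) fell, and 10 (58.8%) rose at least 2-fold. Over all genes tested these shares were 34.6%, 33.2% and 17.7%. The median log2 change was 1.70, against 0.05 over all genes. DUSP6, an ERK phosphatase, had 230, 228 and 225 CPM with TPA, against 46.2, 43.6 and 46.3 CPM untreated. PHLDA1 averaged 229 CPM with TPA, against 2.27 CPM untreated, and SPRED1, an inhibitor of RAS to RAF signalling, 67.7 against 11.8 CPM untreated. IER3, an early response gene, averaged 52.2 CPM with TPA, against 0.465 CPM untreated, a log2 change of 6.82 ± 0.10. IER3 is among the 6 genes that were also higher throughout the table with TPA, where its lowest group mean was 2.49 CPM, against a highest of 0.951 CPM in the other table.

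AP-1 and other immediate early genes were mostly higher, with EGR1 as an exception. Of 28 tested, 24 (85.7%) rose and 1 (3.57%) fell, and 20 (71.4%) rose at least 2-fold. Over all genes tested these shares were 34.6%, 33.2% and 17.7%. The median log2 change was 1.63. JUN had 264, 278 and 265 CPM with TPA, against 16.3, 13.8 and 16.8 CPM untreated, and FOS had 57.3, 56.1 and 55.8 against 5.74, 5.44 and 5.48 CPM untreated. EGR2, a zinc finger factor of macrophage development, averaged 64.5 CPM with TPA, against 0.347 CPM untreated. For these 3 genes every treated library was above every untreated one, by log2 changes of 4.11 ± 0.07, 3.34 ± 0.09 and 7.54 ± 0.12. EGR1, a relative of EGR2 and a classical serum-induced gene, went the other way, with 9.55, 9.84 and 12.1 CPM with TPA, against 15.3, 15.8 and 14.7 CPM untreated. Its log2 change was -0.55 ± 0.09 (adjusted p = 2.1e-06). FOSL1, another AP-1 subunit, rose by 0.38 on the log2 scale, averaging 28.4 CPM with TPA, against 21.8 CPM untreated.

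The AP-1 element itself was looked for in the promoters. RefSeq promoters of build GRCh38.p14 were searched, in the 250 bases before the start, for TGAGTCA and its reverse complement TGACTCA, so both strands were covered and no other motif was searched. Of 16989 genes tested, 11189 matched a promoter by symbol, and the shares below are for the genes with 1 listed start. Of 210 such promoters of genes at least 16-fold higher with TPA, 23 (11%) held the element. The share was 7.15% (85 of 1189) for genes at least 2-fold higher, 2.84% (59 of 2076) for genes not called and 1.83% (13 of 709) for genes at least 2-fold lower. The share was 3.01% over all genes tested and 4.36% over all promoters of that length. A match describes the letters of the window only, and binding was not measured.

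**Figure D2:**
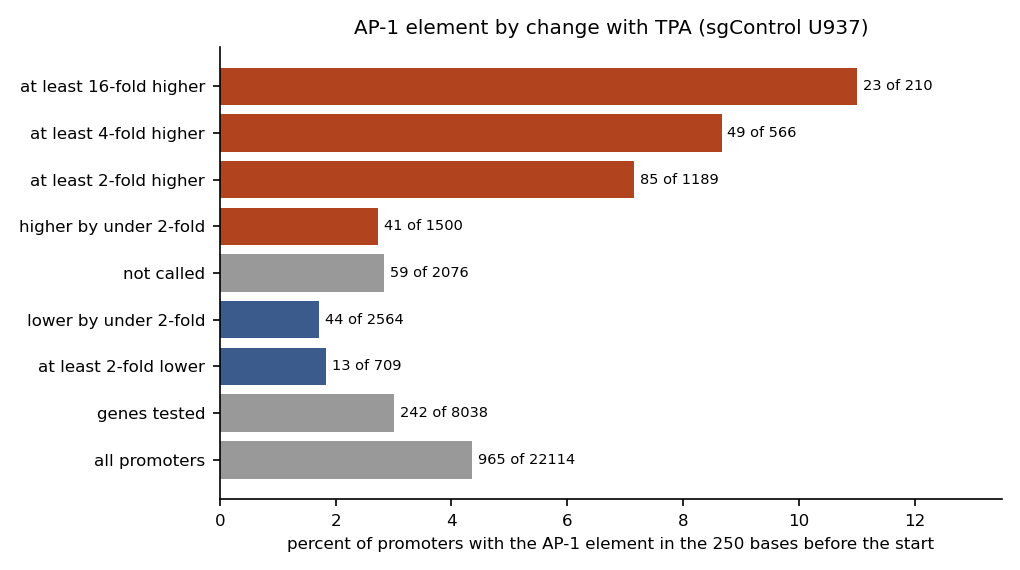
Bars give the percent of promoters, of genes with 1 listed start, that hold the AP-1 element in the 250 bases before the start, with counts beside them. Classes run from genes at least 16-fold higher with TPA to genes at least 2-fold lower, and the wider higher classes contain the narrower ones. The share is 11% in the topmost class and 1.83% among genes at least 2-fold lower.

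Among the genes named by the rule that rose at least 2-fold, 88 of 162 had 1 listed start and 7 of these held the element. Their windows are printed 5′ to 3′ on the strand of the gene, with up to 30 bases on each side and the element in capitals, because they show where these letters stand in genes of different function that rose.
CXCL8: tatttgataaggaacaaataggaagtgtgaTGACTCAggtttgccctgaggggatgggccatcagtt
CD14: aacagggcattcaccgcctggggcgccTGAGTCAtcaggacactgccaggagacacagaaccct
EMP1: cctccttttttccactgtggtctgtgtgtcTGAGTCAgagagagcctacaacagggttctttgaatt
PLAUR: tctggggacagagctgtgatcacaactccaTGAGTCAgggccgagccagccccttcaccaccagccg
ENO2: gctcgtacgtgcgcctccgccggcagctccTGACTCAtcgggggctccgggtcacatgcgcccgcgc
XIRP1: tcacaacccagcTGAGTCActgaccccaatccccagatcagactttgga
ANXA2: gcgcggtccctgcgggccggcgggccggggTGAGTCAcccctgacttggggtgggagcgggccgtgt
CXCL8 lies on the plus strand (chr4:73740402-73740468), EMP1 (chr12:13196521-13196587) and ENO2 (chr12:6914456-6914522) likewise. CD14 (chr5:140633362-140633425), PLAUR (chr19:43670319-43670385), XIRP1 (chr3:39192797-39192845) and ANXA2 (chr15:60398077-60398143) lie on the minus strand. The element began 94 bases before the start in ENO2, 127 in ANXA2, 137 in CXCL8, 175 in EMP1, 186 in PLAUR, 223 in CD14 and 238 in XIRP1. EMP1, a membrane protein, averaged 512 CPM with TPA, against 0.620 CPM untreated, and PLAUR, the urokinase receptor, had 625, 621 and 634 against 45.2, 43.6 and 43.8 CPM untreated. ENO2, a glycolytic enolase, rose least of the 7, to 15.6 CPM with TPA against 6.52 CPM untreated, and DESeq2 did not call it (adjusted p = 0.13).

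NF-kB genes and genes of secreted factors were mostly higher. Of 24 NF-kB subunit and feedback genes tested, 20 (83.3%) rose and 2 (8.33%) fell, with a median log2 change of 0.73. By at least 2-fold, 11 (45.8%) rose. Over all genes tested these shares were 34.6%, 33.2% and 17.7%. TNFAIP3, the A20 inhibitor, had 89.2, 88.1 and 86.2 CPM with TPA, against 14.1, 12.8 and 14.3 CPM untreated. BCL2A1, an anti-apoptotic BCL2 relative, rose by 4.80 on the log2 scale, and TRAF1, a signalling adaptor, averaged 60.6 CPM with TPA, against 1.29 CPM untreated. The subunit NFKB1 itself changed by 0.44 ± 0.04, averaging 125 CPM with TPA, against 91.8 CPM untreated.

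Of 36 cytokine and chemokine genes tested, 29 (80.6%) rose and 2 (5.56%) fell, and 23 (63.9%) rose at least 2-fold. Over all genes tested these shares were 34.6%, 33.2% and 17.7%. The median log2 change was 2.67, or 2.34 with genes at 0 reads set to the floor. CCL2, the monocyte attractant, had 1177, 1170 and 1128 CPM with TPA, against 36.8, 34.9 and 31.6 CPM untreated. TNF had 77.8, 72.8 and 72.8 CPM with TPA, against 2.97, 3.16 and 2.38 CPM untreated, and CXCL8, the neutrophil attractant, 84.3, 84.6 and 81.8 against 5.95, 5.30 and 5.01 CPM untreated. IL1B averaged 71.9 CPM with TPA, against 6.47 CPM untreated. No treated library fell within the untreated range for these 4 genes. CCL3, CCL4 and CCL7, which attract monocytes and other leukocytes, averaged 15.1, 5.29 and 13.3 CPM with TPA, against 0.157, 0.0803 and 0.0965 CPM untreated. CCL3 and CCL4 have near-identical copies, so their counts are uncertain. IL10, a cytokine that dampens inflammation, averaged 2.19 CPM with TPA, against 0.0463 CPM untreated.

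Genes of macrophage surface and effector functions rose strongly, with a median log2 change of 3.40. Of 40 genes tested, 32 (80%) rose and 2 (5%) fell, and 30 (75%) rose at least 2-fold. Over all genes tested these shares were 34.6%, 33.2% and 17.7%. ITGAX, the CD11c integrin chain, had 213, 222 and 233 CPM with TPA, against 0.841, 1.71 and 1.79 CPM untreated. ITGAM, CD11b, averaged 97.1 CPM with TPA, against 4.13 CPM untreated, and CSF1R, the receptor of macrophage colony-stimulating factor, 67.9 against 4.66 CPM untreated. CD14, the lipopolysaccharide co-receptor, had 12.1, 12.6 and 12.4 CPM with TPA, against 0.0467, 0.231 and 0 CPM untreated. CD163, the haemoglobin scavenger receptor, which overlaps CD163L1 on the same strand, averaged 48.0 CPM with TPA, against 0.0695 CPM untreated. CHIT1, the chitinase of activated macrophages, and FCGR3A, the CD16 receptor, averaged 6.62 and 5.86 CPM with TPA and had 0 reads untreated, at least 269-fold and 238-fold higher. FCGR3A has a close copy, so its counts are uncertain. CD68, which overlaps other genes on both strands, was near 0 in both groups, at 0.142 CPM with TPA and 0.0725 CPM untreated, and was not called.

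Adhesion genes were mostly higher. Of 30 integrin and adhesion genes tested, 22 (73.3%) rose and 5 (16.7%) fell, with a median log2 change of 1.15. By at least 2-fold, 16 (53.3%) were higher. Over all genes tested these shares were 34.6%, 33.2% and 17.7%. ITGB2, the shared chain of the leukocyte integrins, which overlaps ITGB2-AS1, had 2495, 2539 and 2540 CPM with TPA, against 617, 579 and 586 CPM untreated. ITGAL, its LFA-1 partner, averaged 222 CPM with TPA, against 45.6 CPM untreated, and CD44, the hyaluronan receptor, 819 against 218 CPM untreated. ITGB5 averaged 191 CPM with TPA, against 4.82 CPM untreated, and ITGA6 919 against 165 CPM untreated.

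**Figure D3:**
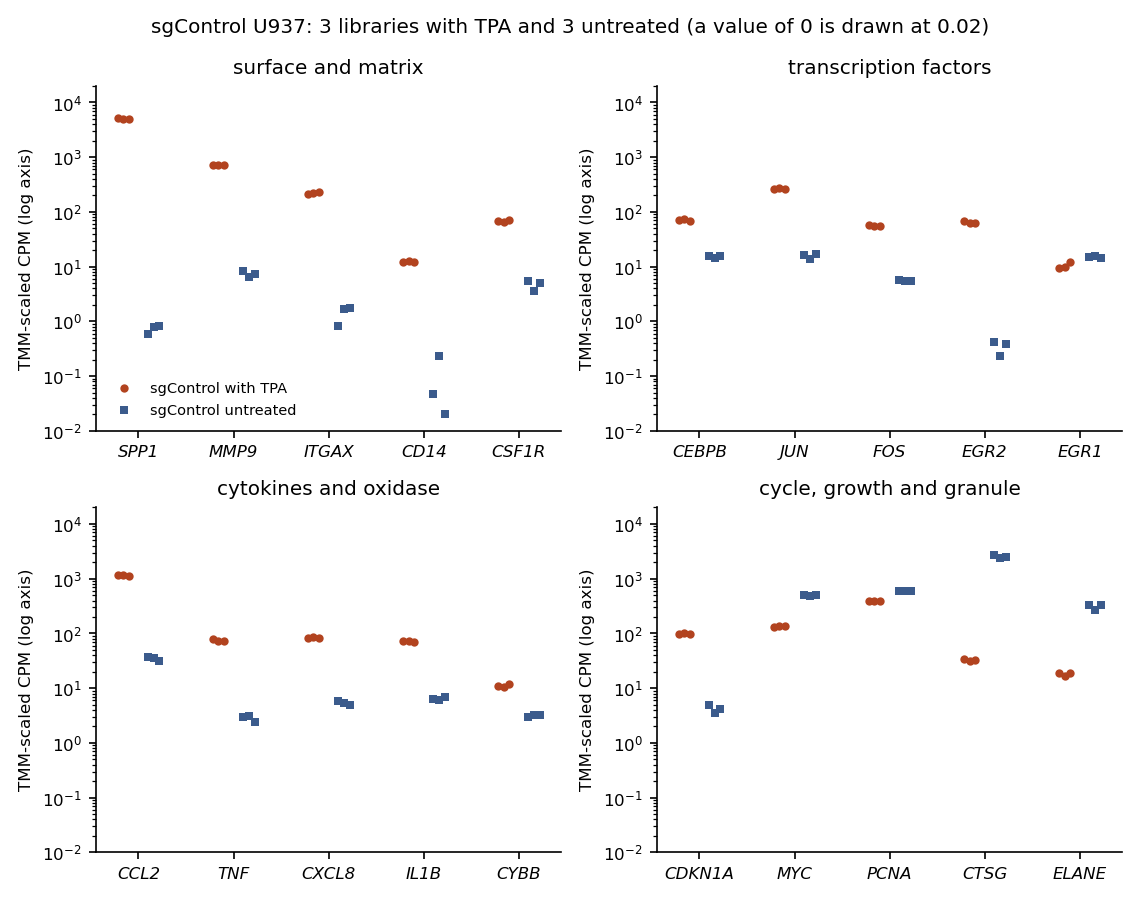
TMM-scaled CPM on a log axis for 20 genes in each sgControl U937 library, 3 with TPA (circles) and 3 untreated (squares), with no bars drawn because every library is shown and a value of 0 drawn at 0.02. The groups do not overlap for any of the 20. EGR1, MYC, PCNA, CTSG and ELANE are lower with TPA, and the other 15 are higher.

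Of 29 protease and matrix genes tested, 25 (86.2%) rose and 2 (6.9%) fell, 23 (79.3%) rising at least 2-fold. Over all genes tested these shares were 34.6%, 33.2% and 17.7%. The median was 2.57, or 2.30 with genes at 0 reads set to the floor. Without untreated replicate 1 the fitted median was 3.64. MMP1, the interstitial collagenase, had 646, 627 and 612 CPM with TPA, against 0.304, 0.254 and 0.112 CPM untreated, and MMP9, the gelatinase, 708, 723 and 731 against 8.24, 6.46 and 7.44 CPM untreated. MMP19 averaged 71.2 CPM with TPA, against 0.127 CPM untreated. A2M, a protease inhibitor, averaged 27.1 CPM with TPA, against 0.0186 CPM untreated. SERPINB2, an inhibitor of plasminogen activators, which overlaps SERPINB10 on the same strand, had 626, 628 and 624 CPM with TPA, against 127, 127 and 127 CPM untreated. The enzyme PLAU rose far less than its receptor PLAUR, by 0.66 ± 0.06 on the log2 scale. MMP1, MMP9, MMP19 and A2M share exon bases with genes on the opposite strand.

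Most genes of lysosomes and of the phagocyte oxidase were higher. Of 40 lysosome genes tested, 37 (92.5%) rose and 2 (5%) fell, with a median log2 change of 0.91. By at least 2-fold, 18 (45%) were higher. Over all genes tested these shares were 34.6%, 33.2% and 17.7%. NPC1, which overlaps RMC1 on the opposite strand, had 1301, 1299 and 1307 CPM with TPA, against 110, 116 and 114 CPM untreated. CTSD averaged 1143 CPM with TPA, against 405 CPM untreated, and SCARB2, the receptor that sorts glucocerebrosidase, 543 against 84.6 CPM untreated. ATP6V0D2, a proton pump subunit, averaged 9.33 CPM with TPA, against 0.0186 CPM untreated. LAMP1, an abundant membrane protein of lysosomes, was instead slightly lower, at 545 CPM with TPA, against 594 CPM untreated (log2 change -0.12 ± 0.03). All 6 NADPH oxidase genes rose. The catalytic CYBB averaged 11.1 CPM with TPA, against 3.17 CPM untreated. NCF1, the p47 subunit, averaged 200 CPM with TPA, against 1.57 CPM untreated, but it has copies NCF1B and NCF1C that rose too, and it was higher throughout the table with TPA, at 64.3 CPM or more, against 31.6 CPM or less in the other.

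Of 26 genes of lipid uptake, storage and efflux tested, 18 (69.2%) rose and 5 (19.2%) fell, and the median was 1.40. By at least 2-fold, 15 (57.7%) rose. Over all genes tested these shares were 34.6%, 33.2% and 17.7%. FABP4, a fatty acid carrier, had 814, 814 and 791 CPM with TPA, against 0.280, 0.461 and 0.168 CPM untreated. PLIN2, the coat of lipid droplets, averaged 541 CPM with TPA, against 67.8 CPM untreated, and OLR1, the oxidised LDL receptor, 16.3 against 0.0156 CPM untreated. Cholesterol and fatty acid synthesis genes were mixed, with 10 of 27 (37%) higher and 15 (55.6%) lower, beside 34.6% and 33.2% over all genes tested. SQLE averaged 582 CPM with TPA, against 205 CPM untreated, while ACACA averaged 52.5 against 93.9 CPM untreated. Among iron genes the exporter SLC40A1 had 1.95, 1.93 and 1.12 CPM with TPA, against 17.6, 18.7 and 17.4 CPM untreated, and HMOX1, haem oxygenase, averaged 96.0 against 17.5 CPM untreated. FTH1, the ferritin heavy chain, averaged 501 CPM with TPA, against 4.25 CPM untreated, but it shares exon bases with BEST1 on the opposite strand and has many pseudogene copies, so its level is uncertain. FTL, the light chain, averaged 5060 CPM with TPA, against 3513 CPM untreated.

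Transcription factors of the myeloid lineage split. Of 26 tested, 13 (50%) rose and 12 (46.2%) fell, beside 34.6% and 33.2% over all genes tested. CEBPB, a factor of monocyte and macrophage genes, averaged 70.9 CPM with TPA, against 15.2 CPM untreated, and BCL6, a repressor, 85.3 against 5.65 CPM untreated. GFI1, another transcriptional repressor, had 52.6, 45.5 and 49.2 CPM with TPA, against 254, 252 and 258 CPM untreated. IRF8 fell to 42.7 CPM with TPA, against 127 CPM untreated, and CEBPA to 47.0 against 97.1 CPM untreated. SPI1 changed by 0.48 ± 0.04. Of 20 progenitor and leukaemia genes tested, 6 (30%) rose and 11 (55%) fell, MYB to 181 CPM with TPA against 532 CPM untreated, FLT3 to 1.57 against 7.67 CPM untreated and MEIS1 to 50.7 against 107 CPM untreated.

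The neutrophil granule proteases fell steeply. CTSG, cathepsin G, had 34.2, 31.8 and 33.4 CPM with TPA, against 2669, 2428 and 2451 CPM untreated. Per length it ranked 1692 of 16989 genes with TPA and 15 untreated. PRTN3, proteinase 3, had 10.9, 9.67 and 12.3 CPM with TPA, against 350, 291 and 347 CPM untreated, and ELANE, neutrophil elastase, 18.9, 16.9 and 18.6 against 331, 265 and 327 CPM untreated. AZU1, azurocidin, averaged 26.6 CPM with TPA, against 155 CPM untreated. The whole granule list was not uniform: of 20 tested, 6 (30%) rose and 11 (55%) fell, beside 34.6% and 33.2% over all genes tested. S100A9, a calcium-binding alarmin, averaged 94.3 CPM with TPA, against 6.97 CPM untreated, and LYZ, lysozyme, 625 against 264 CPM untreated. MPO, myeloperoxidase, was near 0 in both groups, at 0.462 CPM with TPA and 0.322 CPM untreated.

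Genes of DNA replication were lower, mostly by less than 2-fold. Of 42 DNA replication genes tested, 41 (97.6%) fell and none rose, at a median of -0.79, beside 33.2% lower over all genes tested. Only 4 (9.52%) fell at least 2-fold, beside 7.84% of all genes tested. PCNA, the sliding clamp, had 388, 386 and 389 CPM with TPA, against 601, 598 and 590 CPM untreated, and MCM2 averaged 167 against 300 CPM untreated. GINS2 and TK1 fell furthest, to 24.9 CPM with TPA against 67.7 CPM untreated and to 25.9 against 66.0 CPM untreated. Of 40 mitosis genes, 31 (77.5%) fell and 4 (10%) rose, with a median of -0.41, beside 33.2% and 34.6% over all genes tested. CCNB1, cyclin B, averaged 139 CPM with TPA, against 303 CPM untreated. MKI67, a marker of cycling cells, was among the 4 that rose, with 846, 917 and 895 CPM with TPA, against 640, 773 and 747 CPM untreated. Its groups did not overlap, at a log2 change of 0.30 ± 0.05.

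Single cell cycle inhibitors rose, while the lists that hold them were mixed. Of 25 regulators of the G1 phase, 10 (40%) rose and 13 (52%) fell, beside 34.6% and 33.2% over all genes tested. CDKN1A, the p21 inhibitor, which overlaps DINOL on the opposite strand, had 98.7, 99.9 and 96.6 CPM with TPA, against 4.90, 3.55 and 4.22 CPM untreated, and CDKN2B, the p15 inhibitor, averaged 29.8 against 2.58 CPM untreated. CCND2, a D cyclin, averaged 8.70 CPM with TPA, against 27.9 CPM untreated, and SKP2, which targets inhibitors for degradation, 51.0 against 139 CPM untreated. Of 22 p53 target genes tested, 11 (50%) rose and 7 (31.8%) fell, the share that fell being near that over all genes. GDF15, a stress cytokine, averaged 18.6 CPM with TPA, against 0.0623 CPM untreated, while MDM2 had 38.4 against 40.4 CPM untreated and was not called. Of 15 BCL2 family genes, 8 (53.3%) rose and 3 (20%) fell, MCL1 averaging 375 CPM with TPA, against 190 CPM untreated, and BCL2 56.3 against 79.9 CPM untreated.

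MYC and the genes that build ribosomes were lower. MYC, which overlaps CASC11 on the opposite strand, had 133, 135 and 137 CPM with TPA, against 511, 485 and 499 CPM untreated. Of 34 MYC and ribosome biogenesis genes tested, 30 (88.2%) fell and 2 (5.88%) rose, and 18 (52.9%) fell at least 2-fold. Over all genes tested these shares were 33.2%, 34.6% and 7.84%. The median was -1.07. NCL, nucleolin, averaged 1474 CPM with TPA, against 3062 CPM untreated, and ODC1, the polyamine enzyme, 190 against 679 CPM untreated. MXD1, an antagonist of MYC, was among the 2 that rose, to 47.7 CPM with TPA against 14.6 CPM untreated. Of 83 cytosolic ribosomal protein genes tested, 76 (91.6%) fell and 1 (1.2%) rose, beside 33.2% and 34.6% over all genes tested. Their median was -0.59, and together they took 4.36 to 4.49% of reads with TPA, against 6.04 to 6.63% untreated. The most abundant genes that fell at least 2-fold included the chaperones HSPA8, HSP90AA1, HSPD1 and CALR. HSPA8 averaged 1073 CPM with TPA, against 3379 CPM untreated, and CALR 1383 against 3477 CPM untreated.

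**Figure D4:**
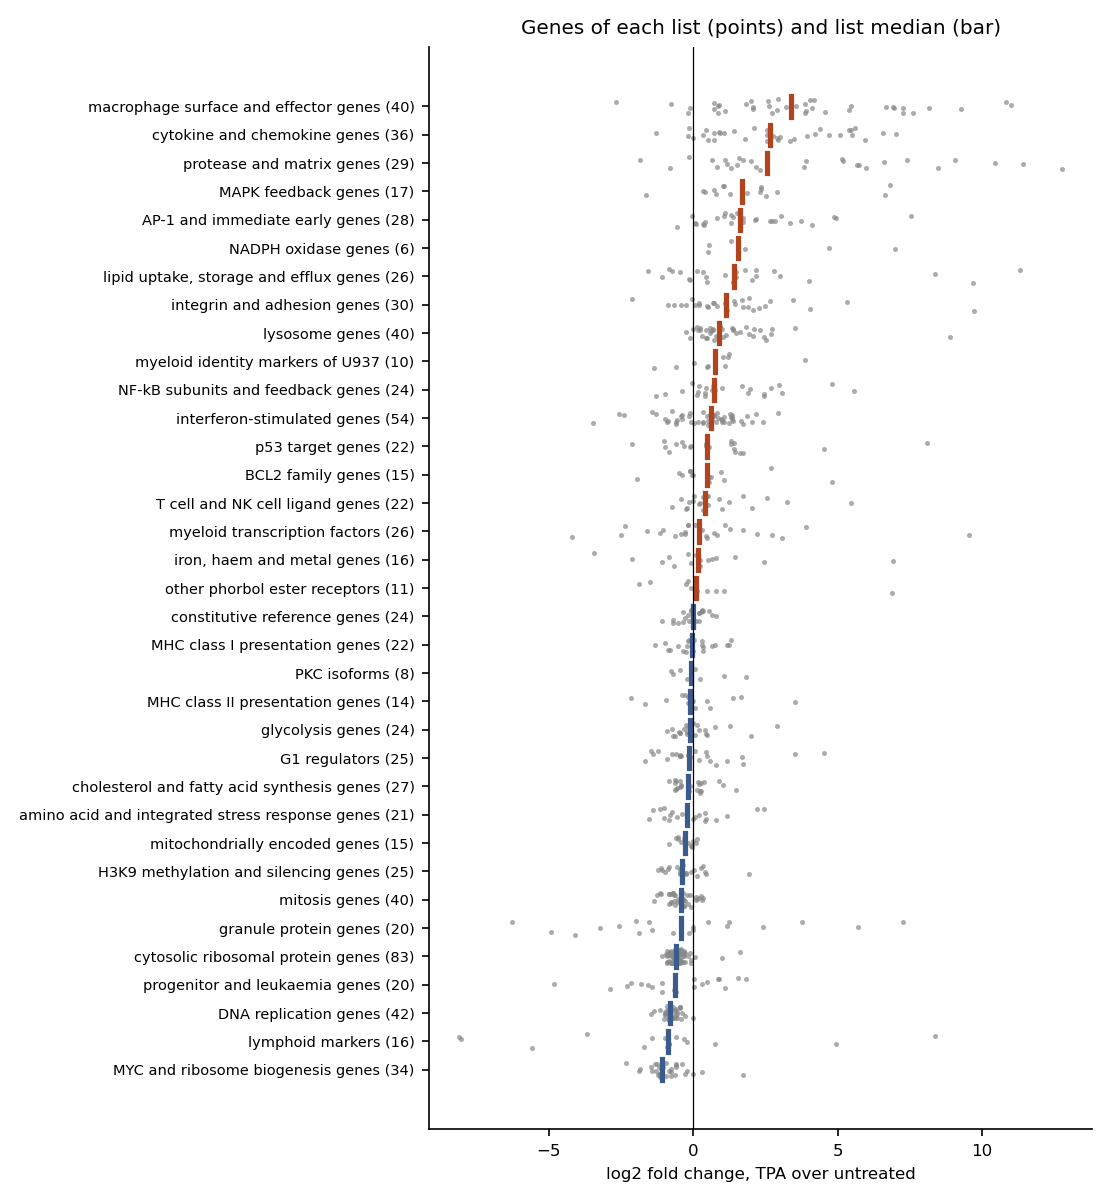
Log2 fold changes of TPA over untreated for the tested genes of each list (points, jittered up and down) with the list median as a bar, sorted by median, and the number of genes tested in brackets. Medians run from 3.40 for the macrophage list to -1.07 for MYC and ribosome biogenesis genes.

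Amino acid and stress genes were split. Of 21 amino acid and stress response genes tested, 8 (38.1%) rose and 11 (52.4%) fell, beside 34.6% and 33.2% over all genes tested. PHGDH and PSAT1, enzymes of serine synthesis, averaged 111 and 62.7 CPM with TPA, against 316 and 163 CPM untreated. PPP1R15A, which restores translation after stress, averaged 367 CPM with TPA, against 66.7 CPM untreated. Of 24 glycolysis genes, 7 (29.2%) rose and 12 (50%) fell. The glucose transporters differed, SLC2A3 at 137 CPM with TPA, against 34.2 CPM untreated, and SLC2A1 at 53.3 against 81.2 CPM untreated. GAPDH had 1806, 1766 and 1826 CPM with TPA, against 1878, 1765 and 1757 CPM untreated, and was not called. The 24 constitutive reference genes had a median change of -0.01, with 11 (45.8%) called higher and 9 (37.5%) lower.

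Antigen presentation genes did not move in 1 direction. Of 22 MHC class I presentation genes tested, 9 (40.9%) rose and 10 (45.5%) fell, beside 34.6% and 33.2% over all genes tested, at a median of -0.03 that came to 0.00 without TPA replicate 1. HLA-E averaged 271 CPM with TPA, against 109 CPM untreated, and B2M 1642 against 1039 CPM untreated. PSMB8, an immunoproteasome subunit, averaged 84.8 CPM with TPA, against 148 CPM untreated. Of 14 MHC class II presentation genes tested, 2 (14.3%) rose and 3 (21.4%) fell. The list summed to 294 to 296 CPM with TPA and 192 to 208 CPM untreated. That sum includes the protease CTSS, at 29.5 RPKM with TPA and 11.4 RPKM untreated, so it does not measure class II molecules alone. CD74, the invariant chain, averaged 2.27 RPKM with TPA and 4.39 RPKM untreated. HLA-DRA was low in both groups, at 0.0836 CPM with TPA and 0.256 CPM untreated. HLA-DRB1 averaged 9.06 RPKM with TPA and 8.63 RPKM untreated. Of 22 ligands of T cells and natural killer cells, 11 (50%) rose and 2 (9.09%) fell. CD86, a co-stimulatory ligand of T cells, averaged 14.7 CPM with TPA, against 0.329 CPM untreated. CD274, which encodes PD-L1, was near 0 in both groups, at 0.0967 CPM with TPA and 0.161 CPM untreated.

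Interferon-stimulated genes rose more often than they fell. Of 54 tested, 31 (57.4%) rose and 13 (24.1%) fell, beside 34.6% and 33.2% over all genes tested. By at least 2-fold, 17 (31.5%) rose and 4 (7.41%) fell, beside 17.7% and 7.84% over all genes tested, and the median was 0.61. OAS1 had 13.8, 11.5 and 9.88 CPM with TPA, against 1.87, 1.38 and 1.26 CPM untreated, and ISG15 averaged 12.7 against 7.17 CPM untreated. MX1 had 1.23 CPM with TPA, against 1.64 CPM untreated, and was not called. GBP1 was lower, at 0.110 CPM with TPA, against 0.603 CPM untreated. Of 25 genes of H3K9 methylation and silencing, 6 (24%) rose and 17 (68%) fell. EHMT2, the G9a methyltransferase, averaged 72.1 CPM with TPA, against 170 CPM untreated, and TRIM28, the KAP1 corepressor, 362 against 785 CPM untreated. SETDB1, another H3K9 methyltransferase, was not called, at 44.8 CPM with TPA and 44.3 CPM untreated. DNMT3A, a DNA methyltransferase, averaged 108 CPM with TPA, against 27.9 CPM untreated.

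Erythroid and stromal markers were near absent, while some lymphoid and megakaryocyte markers were expressed. Of 13 erythroid and 13 stromal and endothelial markers, 2 and 4 had enough reads to be tested and none was called, and the summed level of the erythroid list was 5.25 to 6.77 CPM with TPA and 6.52 to 7.54 CPM untreated. The stromal list summed to 1.92 to 2.78 CPM with TPA and 1.91 to 2.66 CPM untreated. Of 8 megakaryocyte markers tested, 3 (37.5%) were called higher, a share near the 34.6% over all genes, and the list summed to 25.3 to 27.8 CPM with TPA and 2.17 to 3.41 CPM untreated, while PF4 and GP9 had too few reads to be tested. VWF, von Willebrand factor, had 19.5, 19.3 and 20.8 CPM with TPA, against 0, 0.0461 and 0 CPM untreated, while ITGA2B, the platelet integrin chain, was at 0.555 CPM with TPA and 0.331 CPM untreated and was not called. Of 16 lymphoid markers tested, 3 (18.8%) rose and 8 (50%) fell, beside 34.6% and 33.2% over all genes tested. The lymphoid list summed to 449 to 451 CPM with TPA and 458 to 483 CPM untreated. Most of that sum came from CD4, a co-receptor that monocytes also carry, at 173 CPM with TPA and 261 CPM untreated, and NKG7, a granule membrane gene of cytotoxic cells, at 134 CPM with TPA and 156 CPM untreated, both called lower. Of 7 dendritic cell markers tested, 3 were called in each direction (42.9% each), beside 34.6% higher and 33.2% lower over all genes tested. CD1C, among those called higher, averaged 0.0253 RPKM with TPA and 0 RPKM untreated, and its call was lost under some alternatives. IL7R, the interleukin-7 receptor, averaged 105 CPM with TPA, against 3.39 CPM untreated. CD3E and LCK, T cell signalling genes, had no reads with TPA and averaged 0.860 and 0.888 CPM untreated, and CD79A, a B cell receptor chain, averaged 2.33 against 6.28 CPM untreated. The part of other cells in these values was not tested.

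Libraries labelled SKO and DKO were also made with TPA and without, and the effects were compared in 1 fit of 18 libraries. SUV39H1 averaged 53.6 CPM with TPA and 110 CPM untreated in the libraries labelled SKO, 22.4 and 81 CPM in those labelled DKO, and 36.3 and 65.0 CPM in sgControl. SUV39H2 averaged 9.96 and 32 CPM in those labelled DKO, and 19.9 and 42.1 CPM in sgControl. Untreated, SUV39H1 was therefore higher, not lower, in the libraries labelled SKO and DKO, and transcript counts do not see a small deletion, so SKO and DKO stand here for labels. Column names mark the untreated DKO libraries as clone 3, and the untreated libraries of each label were again in the other table. The column names of the untreated sgControl and SKO libraries share a numeric tag that those of the untreated DKO libraries lack. By at least 2-fold, 2696 genes (15.9%) were higher with TPA and 773 (4.55%) lower in libraries labelled SKO, 3655 (21.5%) higher and 2688 (15.8%) lower in those labelled DKO, and 3004 higher and 1332 lower in sgControl. The effect differed from that in sgControl for 6405 genes in SKO (37.7%) and 8425 in DKO (49.6%) by the test of the difference, at an adjusted p of 0.05. At a difference of at least 2-fold the counts were 1150 (6.77%) and 2681 (15.8%).

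The effect on interferon-stimulated genes differed in most members. Their median log2 change was 2.31 in SKO, 4.18 in DKO and 0.61 in sgControl, and the difference from sgControl passed the test for 44 (81.5%) and 53 (98.1%) of the 54 genes, beside 37.7% and 49.6% of all genes. GBP1, an interferon-induced GTPase, averaged 7.56 CPM with TPA and 0.677 CPM untreated in SKO, 194 and 0.148 CPM in DKO, and 0.110 and 0.603 CPM in sgControl. Cytokine genes had medians of 2.66, 5.46 and 2.67 in SKO, DKO and sgControl, and macrophage genes 2.44, 3.38 and 3.40. DNA replication genes had medians of -0.82 in SKO, -1.73 in DKO and -0.79 in sgControl, and 12 (28.6%) and 40 (95.2%) of the 42 passed the test of the difference, beside 37.7% and 49.6% of all genes. The share in SKO was thus under that of all genes. MYC and ribosome biogenesis genes had medians of -0.25, -1.22 and -1.07, and 29 (85.3%) and 22 (64.7%) of 34 passed it.

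**Figure D5:**
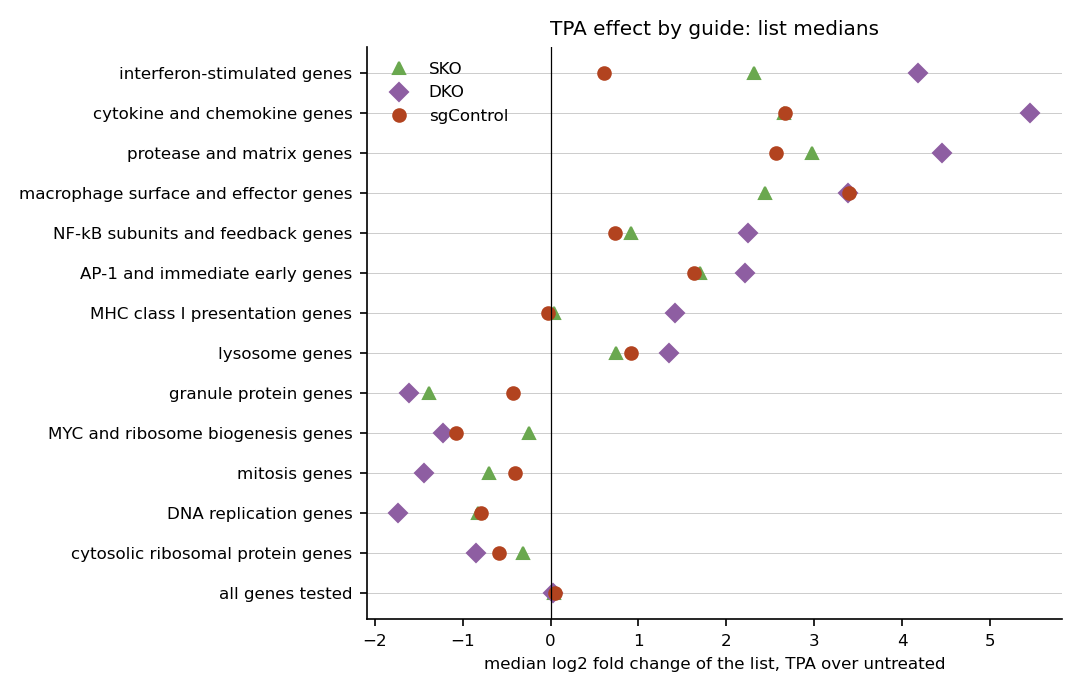
Median log2 fold change of TPA over untreated for 14 gene sets in U937 libraries labelled SKO (triangles), DKO (diamonds) and sgControl (circles). Interferon-stimulated genes stand at 2.31, 4.18 and 0.61, and all genes tested near 0 in each.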

How the data were processed

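The report rests on polyA RNA sequencing of 6 sgControl U937 libraries, and its model on all 18 U937 libraries. The deposited values are raw read counts per gene, made by the authors with fastp 0.23.4, STAR 2.7.11b and featureCounts of Subread 2.0.6 on hg38, per the submitters' processing notes. Per the file headers, the untreated table was counted with GENCODE release 38 by gene name and without strand. No command is in the header of the table with TPA, but positions and lengths of all 59428 genes matched between the tables. Reads were taken from a directional kit, per the labels' protocols. Counting without strand cannot tell a gene from its antisense partner where their exons overlap. Whether reads in shared bases were dropped or counted was not checked, so levels of such genes may err either way. Of the 353 tested genes named, 128 share exon bases with another gene. Each table names every library, and 0 deposited columns of per-sample values were left unused.

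Counts were tested with edgeR 4.0.16 (R 4.3.3): its filter on low counts, TMM scaling, 1 term per group and the quasi-likelihood test, with Benjamini-Hochberg adjustment over 16989 genes and a threshold of 0.05. A fold change is TPA over untreated, and ± beside it is a standard error. The fit of 6 groups of 3 left 12 residual degrees of freedom. The script was tested on simulated data. Gene lists and named genes were chosen with earlier results of these data known, and no list has a test of its own. Named genes are SUV39H1 and SUV39H2, the 4 genes at the head of each list, up to 6 members of a list with the largest change, the 12 highest and 12 lowest changes at a mean log2 CPM of at least 1 without overlap, the 10 most abundant that changed at least 2-fold in each direction, 6 genes per direction with 0 reads in the other group, and the 5 largest differences per direction in SKO and DKO. Bounds against 0 reads use 3 reads over a group (0.0246 CPM untreated, 0.0243 CPM with TPA) and cover counting error only. RPKM divides CPM by the deposited gene length. Mean log2 CPM, as used for naming, is taken over all 18 U937 libraries, those labelled SKO and DKO included. DESeq2 1.42.0, 2 other scalings, no filter, a replicate term, the 6 libraries alone and leaving out each library were alternatives. Some genes that the rule takes are not reported here.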

Additional observations from a re-analysis of the deposited data

Results flagged for a closer look

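A difference between the libraries labelled SKO or DKO and sgControl in the effect of TPA, by the test of the difference itself, marks these results. It passed for 6405 genes in SKO against sgControl and for 8425 in DKO against sgControl. Values are log2 differences of effects in edgeR's quasi-likelihood test, followed by mean CPM, and where a group has 0 or few reads the log2 value depends on the fit and only the levels should be read.

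In SKO the lowest differences were NCF1C at -4.78, FCGR3A at -4.54, NCF1B at -4.38, NCF1 at -4.12 and CEACAM1 at -4.01. NCF1 averaged 148 CPM with TPA and 20.2 CPM untreated in SKO, and 200 and 1.57 CPM in sgControl, and NCF1B and NCF1C are its copies. FCGR3A lost its call when SKO replicate 1 or any untreated sgControl library was left out. CEACAM1 stayed at or under 1.21 CPM in all 4 groups. The highest were IGLL1 at 10.65, SH3TC2 at 6.96, CYP4F3 at 6.91, GBP1 at 5.90 and PRTG at 5.87. IGLL1 averaged 0.0576 CPM with TPA and 0.188 CPM untreated in SKO, and 0 and 16.3 CPM in sgControl, so its level in untreated sgControl cells sets the value. PRTG had 3.82 and 9.93 CPM in SKO, and 0 and 0.490 CPM in sgControl. CYP4F3 had 5.00 and 0.666 CPM in SKO, and 0 and 0.0527 CPM in sgControl. SH3TC2 had 3.03 and 0 CPM in SKO, and 6.52 and 0.876 CPM in sgControl.

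In DKO the lowest were CTD-2006K23.1 at -5.50, CD180 at -4.67, BMP7 at -4.60, ANGPT4 at -4.37 and MYBPH at -4.33. CD180, a toll-like receptor homologue, averaged 84.1 CPM with TPA and 47.1 CPM untreated in DKO, and 13.6 and 0.285 CPM in sgControl, so the smaller fold in DKO went with a higher untreated level. MYBPH had 35.5 and 3.66 CPM in DKO, and 58.4 and 0.294 CPM in sgControl. The highest were GBP1 at 12.73, IGLL1 at 11.44, IFI44L at 11.37, CTSL at 10.48 and NT5E at 8.24. IFI44L averaged 88.8 CPM with TPA and 0.0189 CPM untreated in DKO, and 0.133 and 0.0772 CPM in sgControl. CTSL, cathepsin L, had 25.5 and 0 CPM in DKO, and 0.377 and 0.0680 CPM in sgControl, and NT5E, the CD73 enzyme, 27.6 and 0 against 1.46 and 0.0463 CPM.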

How the results depend on the processing

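Every count of called genes in the effect of TPA and in both differences of effects stayed within 1.5 times its value under the alternatives run. For sgControl, genes at least 2-fold higher numbered 2992 with DESeq2 size factors, 3046 with upper-quartile scaling, 3001 by DESeq2, 3075 without the filter, 2700 with the 6 libraries alone and 2858 to 2962 when a library was left out, beside 3004. Genes at least 2-fold lower numbered 1252 to 1475, beside 1332. The scalings moved the median of all genes by -0.004 and 0.013. With the replicate number as a block the counts were 2968 and 1321. Libraries with the same number did not deviate together (correlations of -0.001, 0.004 and 0.013), so the numbers name libraries only. List medians moved by at most 1.07 (protease and matrix genes, 3.64 without untreated replicate 1). Those of 7 lists changed sign or came to 0: PKC isoforms, other phorbol ester receptors, MHC class I and II, stromal, dendritic and constitutive genes. Calls lost under some alternative were those of PRKCA, ABCG1, CD34, HLA-DRA, IFIT1, ENO2, CEACAM1, CYP4F3, H2BC21, H4C9 and CD1C. PRKCA, for example, had an adjusted p of 0.14 without TPA replicate 3, and CD1C, called at 0.062 CPM with TPA and 0 untreated, ranged from 0.00 to 4.92 when a library was left out, and was 0.00 without TPA replicate 2. Depth of 35419849 reads or more per library puts 1 read at under 0.03 CPM, so values near that are counts of a few reads.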

Other observations

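No chromosome stood apart in the effect of TPA. Genes averaging at least 2 on the log2 CPM scale over the 18 U937 libraries were used. Among them the medians of 23 chromosomes lay between -0.12 and 0.18 of the median of all these genes. Of the 3 genes lower throughout the table with TPA, MVB12B averaged 28.7 CPM at most in that table and 62.9 CPM at least in the other. The mitochondrial ribosomal RNA MT-RNR1 had 543, 543 and 497 CPM with TPA, against 641, 1532 and 636 CPM untreated, and untreated replicate 2 stood apart from the others for this gene. With any listed start counted, in place of genes with 1 start, the share of promoters with the AP-1 element was 12% for genes at least 16-fold higher with TPA, 4.81% for genes not called and 2.45% for genes at least 2-fold lower.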
